A study of Mus musculus with 4 samples.

Results

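The transcripts of 10 chemokine genes were followed in mouse liver tumours and normal liver: Cxcl1, Cxcl2, Cxcl5, Cxcl10, Cxcl12, Cxcl16, Ccl2, Ccl7, Ccl20 and Cx3cl1. They were taken by symbol from tables of read counts for 25793 genes, and all 10 symbols were found. The genes were chosen by their counts in these same tumours and normal livers, which were known from an earlier look at the data, so their levels in the tumours and in normal liver are given as a description, and nothing is read from a test on them. RNA sequencing covered 4 libraries. Tumours 1 and 2 are labelled liver tumours of mice that carry 1 intact and 1 disrupted copy of both the beta-2 spectrin and the Smad3 gene (beta-2SP+/- ; SMAD3+/-). The normal livers are labelled as from a mouse of that same genotype and from a wild type mouse, with 1 library each. The sources used here do not give strain, sex, age or the number of animals, and it is not stated whether 1 animal or more gave the tumours. The short sample descriptions read otherwise, with Elf-Tcell against tumour 1, Smad-Tcell against tumour 2 and hepatocyte names against both normal libraries. Grouping here is by labelled genotype and disease state, and the normal livers are called double heterozygous and wild type as labelled.

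Chemokines are small secreted proteins that attract white blood cells by binding G protein-coupled receptors. They are classed by the spacing of their conserved cysteines: adjacent in CC chemokines, parted by a single residue in CXC chemokines and by a stretch of residues in CX3C chemokines. CXC chemokines that carry the ELR motif in front of the cysteines act on the receptor Cxcr2 and attract neutrophils, and those without it act on other receptors. In healthy liver Cxcl12 is made mostly by endothelial and stromal cells, while Cxcl1, Cxcl2 and Ccl2 are kept low and are induced by NF-kB and AP-1 signalling during injury.

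The coding sequence around the conserved cysteines shows which class each gene belongs to, which is why it is printed for all 10. The stretches below come from GENCODE M21 transcripts (GRCm38) and read 5′ to 3′ in the coding direction. Capitals mark the codons of the paired cysteines and, where present, the ELR codons just before them. In-frame ELR codons were found in Cxcl1, Cxcl2 and Cxcl5 and not in Cxcl10, Cxcl12 or Cxcl16. Cxcl1, Cxcl2, Cxcl5 and Cxcl10 lie on chromosome 5, Cxcl12 on 6, Cxcl16, Ccl2 and Ccl7 on 11, Ccl20 on 1 and Cx3cl1 on 8.
Cxcl1: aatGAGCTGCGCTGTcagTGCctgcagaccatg
Cxcl2: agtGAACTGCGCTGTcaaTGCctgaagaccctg
Cxcl5: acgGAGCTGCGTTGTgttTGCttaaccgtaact
Cxcl10: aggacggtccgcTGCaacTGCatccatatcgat
Cxcl12: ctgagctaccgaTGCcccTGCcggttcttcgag
Cxcl16: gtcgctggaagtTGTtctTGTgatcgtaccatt
Ccl2: gccccactcaccTGCTGCtactcattcacc
Ccl7: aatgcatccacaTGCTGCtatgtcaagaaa
Ccl20: agcaactacgacTGTTGCctctcgtacata
Cx3cl1: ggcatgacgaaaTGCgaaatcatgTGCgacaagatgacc

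Facts of the whole data set that bear on these genes are the following. Gene counts totalled 11049931 and 13295216 in tumours 1 and 2, 15950426 in the double heterozygous normal liver and 18448621 in the wild type normal liver. Of the genes of the labelled alleles, Smad3 reached 305 CPM in tumour 1 and 117 CPM in tumour 2, against 50.3 CPM in the normal liver labelled double heterozygous and 47.0 CPM in that labelled wild type, and Spnb2, the beta-2 spectrin gene, 1119 CPM in tumour 1 and 1028 CPM in tumour 2, against 398 CPM in the first and 363 CPM in the second of these normal livers. Neither was lower where 1 copy is labelled as lost, but these counts cannot show whether the genotype labels hold. The normal tables share counts, as given next, and the tumours differ from normal liver in disease state as well. The group names below are the labels only. The normal tables were closer to each other than sampling allows: counts were identical for 56.8% of the 2632 genes averaging 1 to 5 counts, where separate libraries of this depth would give 22.0%. They were therefore counted as 1 normal library, their rounded mean, which has no replicate. Levels are counts relative to library size, scaled by the trimmed mean of M-values (TMM) and written as CPM. A count of 0 allows up to 3 counts, which is 0.202 and 0.161 CPM in tumours 1 and 2 and 0.329 CPM in the mean normal library. These limits and all counting intervals cover counting error only. In tissue RNA of this kind, fewer cells of a type and less RNA per cell cannot be told apart. The 8 hepatocyte markers, Alb among them, summed to 169 and 156 CPM in tumours 1 and 2, against 207012 CPM in double heterozygous and 195949 CPM in wild type normal liver, so the tumour libraries held few transcripts of these markers. Most of the tumour sum was Hnf4a, at 156 and 107 CPM in tumours 1 and 2. In normal liver Hnf4a was at 1339 CPM in the double heterozygous and 1230 CPM in the wild type library, and it did not pass the test (edgeR adjusted p = 0.0621).

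Of the ELR chemokines, which draw neutrophils, Cxcl5 and Cxcl1 were high in both tumours and Cxcl2 was found mainly in tumour 1, and all were low in normal liver. Cxcl5, a ligand of Cxcr2, had 57548 and 14391 counts in tumours 1 and 2, against 4 in double heterozygous and 3 in wild type normal liver. It was the highest of the 10 genes in each tumour, and the tumours lay far above both normal tables. Cxcl5 averaged 2325 ± 2195 CPM in the tumours (SD, n = 2) and 0.438 CPM in normal liver. With both tumours pooled, the ratio was 4902-fold, with an exact 95% counting interval of 1914 to 17990, and the fitted log2 fold change was 12.34 (SE 2.20). The interval is wide because normal liver gave so few Cxcl5 counts.

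Cxcl1, another Cxcr2 ligand and the mouse gene known as KC, had 4633 and 3704 counts in tumours 1 and 2, against 52 in double heterozygous and 72 in wild type normal liver. The groups did not overlap, and among the ELR genes Cxcl1 had the closest tumour values. It averaged 255 ± 80.1 CPM in the tumours and 6.80 CPM in normal liver, 37.6-fold higher, with a log2 fold change of 5.23 (SE 0.82). Cxcl2, the neighbouring ligand known as MIP-2, had 258 and 19 counts in tumours 1 and 2, against 0 in double heterozygous and 2 in wild type normal liver. Both tumours were above the normal tables, at 159-fold the normal level in tumour 1 and 9.30-fold in tumour 2. Its CPM was 9.20 ± 11.6 in the tumours and 0.110 in normal liver, a pooled ratio of 75.5-fold (95% counting interval 13.4 to 2992). Its log2 fold change was 6.28 (SE 2.67), 3.10 without tumour 1 and 9.99 without the wild type normal liver. Of the 31-base stretches in Cxcl2 transcripts, 7.59% also occur in Cxcl3, so reads of these neighbours may be confused.

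The CC chemokines that attract monocytes and lymphoid cells were also high in both tumours and nearly absent from normal liver. Ccl2, which recruits monocytes through Ccr2, had 7325 and 4702 counts in tumours 1 and 2, against 1 in each normal table. It averaged 373 ± 170 CPM in the tumours and 0.110 CPM in normal liver. The pooled ratio was 3278-fold, but with a single normal count its 95% counting interval ran from 588 to 129477. The log2 fold change of Ccl2 was 11.62 (SE 1.33). Ccl7, a ligand of Ccr1, Ccr2 and Ccr3 encoded near Ccl2, had 1314 and 281 counts in tumours 1 and 2, against 0 in both normal tables. Its tumour mean of 51.8 ± 51.9 CPM was at least 158-fold higher, taking the limit of 3 counts in the mean normal library. That bound rests mostly on tumour 1, since tumour 1 alone gives at least 269-fold and tumour 2 alone at least 45.9-fold. Ccl20, the ligand of Ccr6, had 2148 and 1188 counts in tumours 1 and 2, against 3 in each normal table. That is 104 ± 57.2 CPM in the tumours against 0.329 CPM in normal liver, a pooled ratio of 303-fold (95% counting interval 104 to 1470) and a log2 fold change of 8.27 (SE 1.17). For all 3 CC genes, tumour 1 was the higher tumour and neither tumour approached the normal level.

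Cxcl16 and Cx3cl1 encode the chemokines that are made as membrane-anchored proteins and released by shedding. Cx3cl1, the ligand of Cx3cr1, had 788 and 1573 counts in tumours 1 and 2, against 12 in each normal table. It is the gene of this group with the higher value in tumour 2, with 53.1 CPM in tumour 1 and 84.4 CPM in tumour 2, and 1.32 CPM in normal liver. The tumour mean was 52.3-fold higher, with a log2 fold change of 5.70 (SE 0.85). Cxcl16, the ligand of Cxcr6, had 780 and 673 counts in tumours 1 and 2, against 37 in double heterozygous and 39 in wild type normal liver. At 44.3 ± 11.6 CPM in the tumours and 4.17 CPM in normal liver it was 10.6-fold higher, with a log2 fold change of 3.41 (SE 0.75). Of its 31-base stretches, 18.5% also occur in the overlapping transcripts of Zmynd15, and whether strand was used in counting is not given, so part of the Cxcl16 counts may belong to that gene.

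Cxcl10 and Cxcl12, CXC genes without the ELR codons, went separate ways. Cxcl10, an interferon-induced ligand of Cxcr3, had 11 and 93 counts in tumours 1 and 2, against 5 in double heterozygous and 7 in wild type normal liver. In tumour 1 its level of 0.741 CPM stood beside 0.591 CPM in double heterozygous and 0.715 CPM in wild type normal liver, a difference within counting error, and only tumour 2, at 4.99 CPM, was clearly above them. The log2 fold change of Cxcl10 was 2.11 (SE 1.91) with both tumours and 0.17 without tumour 2. Cxcl12, also called SDF-1, holds and guides cells that carry Cxcr4. It had 0 and 60 counts in tumours 1 and 2, against 6247 in double heterozygous and 6721 in wild type normal liver. Both tumours lay far below normal liver, at 1.61 ± 2.28 CPM against 711 CPM, 441-fold lower, with a log2 fold change of -8.76 (SE 2.23). It was -7.80 without tumour 1 and -16.06 without tumour 2, a fitted value that depends on the prior count because tumour 1 has 0 counts. Endothelial markers, low in the same tumours, summed to 2.02 and 3.27 CPM in tumours 1 and 2, against 298 CPM in double heterozygous and 293 CPM in wild type normal liver. In both tumours 9 of 9 markers lay below both normal tables, where 37.5% of all genes tested did, and 1 of 9 was at 0. Their part in the Cxcl12 difference was not tested.

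**Figure D1:**
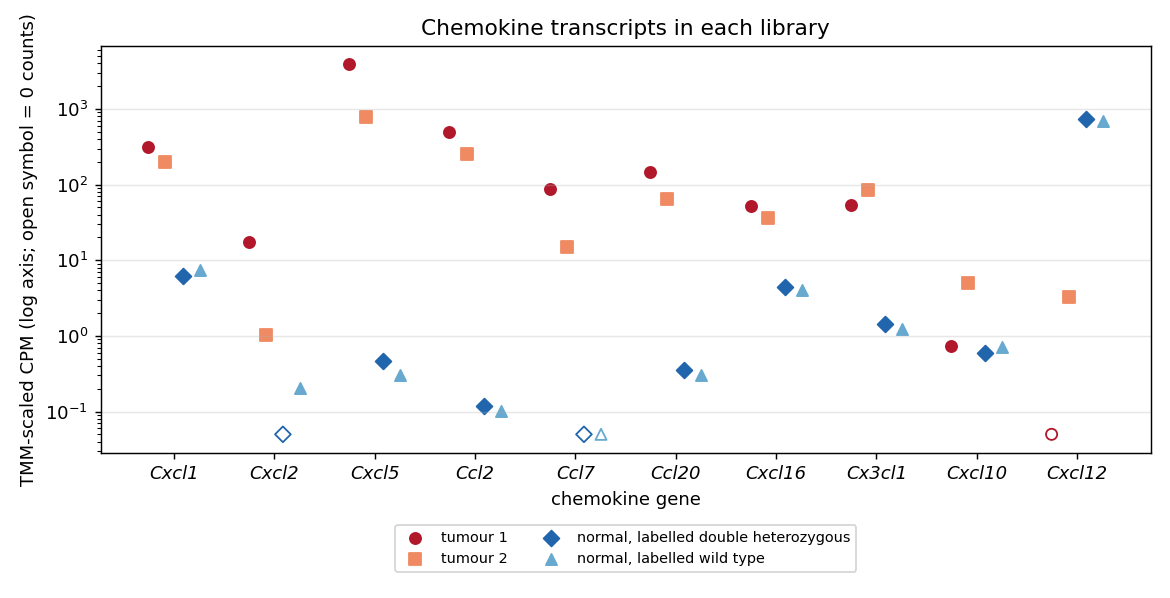
TMM-scaled CPM of the 10 chemokine genes (log axis) in tumours 1 and 2 and in both normal libraries, 1 symbol per library, with open symbols for 0 counts, drawn at 0.05 CPM. Cxcl5 reaches 3877 and 772 CPM in tumours 1 and 2, while Cxcl12 alone sits above the tumours in normal liver, at 738 CPM in the double heterozygous and 687 CPM in the wild type library.

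All 10 genes passed the filter on low counts, Cxcl2, Cxcl5, Cxcl10, Ccl2, Ccl7, Ccl20 and Cx3cl1 through their tumour counts alone. Both tumours were above both normal tables for 9 of the 10 and below them for 1, Cxcl12. Over all 14468 genes tested the shares were 41.2% above and 37.5% below. In the fit of 2 tumours against 1 normal library, edgeR's quasi-likelihood test (Benjamini-Hochberg adjusted p under 0.05 over all genes) called 4 of the 10 higher, Cxcl1, Ccl2, Ccl20 and Cx3cl1, and 0 lower. It called 7.42% of all genes tested, 2.23% higher and 5.19% lower. DESeq2 called 8 of the 10 higher and 0 lower, against 12.2% higher and 12.8% lower of the 13626 genes to which it gave an adjusted p. At an unadjusted edgeR p under 0.05 there were 7 higher and 1 lower, against 12.5% higher and 15.5% lower of all genes. Since these values were in view when the genes were proposed, nothing is read from the counts. The median log2 fold change was 5.99 over the 10 genes and 0.19 over all genes tested. Leaving out tumour 1 lowered the log2 fold change to 10.74 for Cxcl5, 11.04 for Ccl2, 10.70 for Ccl7 (12.52 with both tumours) and 7.54 for Ccl20, and leaving out tumour 2 gave 13.07 for Cxcl5, 13.05 for Ccl7 and 8.73 for Ccl20. Without scaling beyond library size the median of all genes was 1.56, and Cxcl1, for example, had a log2 fold change of 6.59, while Ccl7, at 0 in normal liver, moved less, to 12.92. Under that choice all calls split into 635 higher and 472 lower, where TMM scaling gave 322 higher and 751 lower.

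Set per length of the coding transcripts, so that genes can be compared with each other, the chemokine output of the tumours was led by other genes than that of normal liver. Cxcl5 came first in both tumours, at 2462 and 490 CPM per kilobase (kb) in tumours 1 and 2, followed in each by Ccl2 at 607 and 310 and by Cxcl1 at 328 and 209 CPM per kb. Their counting intervals do not overlap, so the order of these 3 genes holds in each tumour within counting error. In tumour 1 Ccl7 (111 CPM per kb) and Ccl20 (102) came next, with intervals of 105 to 117 and 97.6 to 106 that overlap. In tumour 2 the next were Ccl20 (44.9), Cx3cl1 (23.9) and Ccl7 (18.8), with separate intervals. Cxcl16 was at 19.5 and 13.4 CPM per kb in tumours 1 and 2. Cxcl2, at 9.35 and 0.549 CPM per kb in tumours 1 and 2, was far below the other ELR genes, and in tumour 2 its interval overlapped that of Cxcl12, at 0.450 CPM per kb.

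In normal liver Cxcl12 led at 103 CPM per kb in the double heterozygous and 95.9 in the wild type library. Cxcl1 followed at 6.45 CPM per kb in double heterozygous and 7.72 in wild type liver, and Cxcl16 at 1.62 in double heterozygous and 1.48 in wild type liver. The other 7 were each under 1 CPM per kb in both tables, and their counting intervals overlap. Cxcl5 made up 67.4% and 44.0% of the summed CPM per kb of the 10 genes in tumours 1 and 2, against 0.266% in double heterozygous and 0.183% in wild type normal liver. The share of Cxcl12 was 0% and 0.0403% in tumours 1 and 2, against 91.5% in double heterozygous and 90.0% in wild type normal liver. The sum itself was 3653 and 1115 CPM per kb in tumours 1 and 2, against 113 in double heterozygous and 107 in wild type normal liver.

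**Figure D2:**
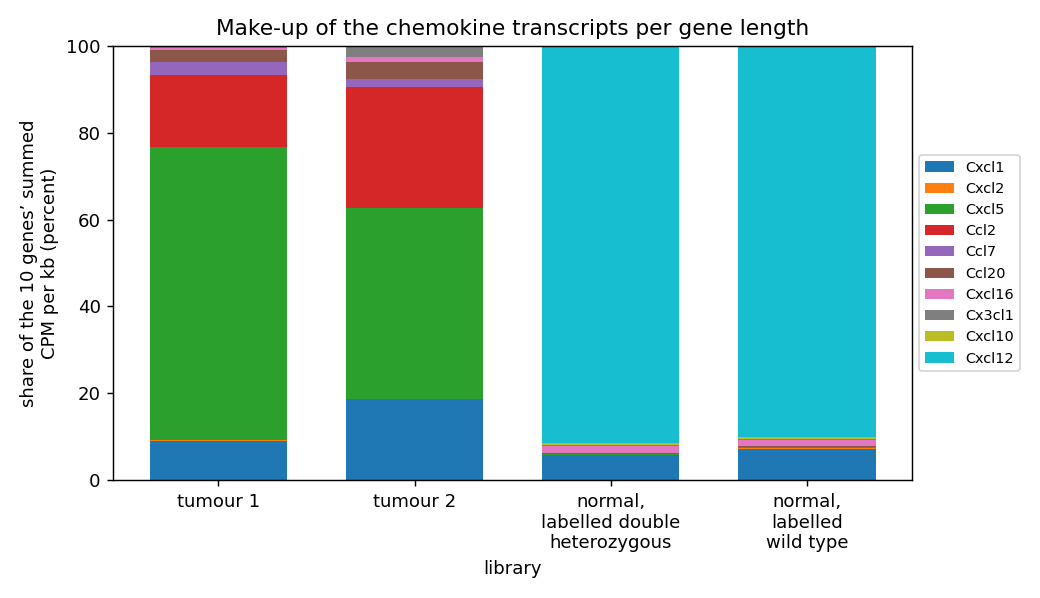
Share of each of the 10 chemokine genes in their summed CPM per kb (percent), 1 stacked bar per library. Cxcl5, Ccl2 and Cxcl1 fill most of both tumour bars, and Cxcl12 fills 91.5% of the double heterozygous and 90.0% of the wild type bar.

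Promoter sequence was examined because several of these genes were high in the same tumours. RefSeq windows (GRCm38.p6) from 250 bases before to 50 bases after the gene start were found for 6 of the 10 genes: Cxcl1, Cxcl2, Cxcl10, Cxcl12, Ccl20 and Cx3cl1. Windows for Cxcl5, Cxcl16, Ccl2 and Ccl7 were not analysed here. An NF-kB-type motif, GGG then any 3 bases then TTCC, was searched on both strands and is shown in capitals, overlapping matches merged. Cxcl1 (chr5:90890995-90891294, plus strand), Cxcl2 (chr5:90903649-90903948, plus strand), Ccl20 (chr1:83116516-83116815, plus strand) and Cxcl10 (chr5:92348840-92349139, minus strand) hold it, and Cxcl12 (chr6:117168285-117168584, plus strand) and Cx3cl1 do not.
Cxcl1: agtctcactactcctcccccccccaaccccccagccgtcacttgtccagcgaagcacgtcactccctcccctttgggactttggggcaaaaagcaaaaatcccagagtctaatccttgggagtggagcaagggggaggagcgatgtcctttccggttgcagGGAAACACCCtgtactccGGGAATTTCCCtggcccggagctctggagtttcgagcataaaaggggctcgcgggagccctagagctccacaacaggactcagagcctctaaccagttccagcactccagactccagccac
Cxcl2: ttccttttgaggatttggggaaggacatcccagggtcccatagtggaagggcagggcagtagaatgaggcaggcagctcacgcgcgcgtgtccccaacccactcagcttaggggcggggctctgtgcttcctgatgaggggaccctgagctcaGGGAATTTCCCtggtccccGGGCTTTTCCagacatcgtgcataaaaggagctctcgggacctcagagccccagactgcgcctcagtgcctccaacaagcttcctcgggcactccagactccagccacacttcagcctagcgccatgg
Ccl20: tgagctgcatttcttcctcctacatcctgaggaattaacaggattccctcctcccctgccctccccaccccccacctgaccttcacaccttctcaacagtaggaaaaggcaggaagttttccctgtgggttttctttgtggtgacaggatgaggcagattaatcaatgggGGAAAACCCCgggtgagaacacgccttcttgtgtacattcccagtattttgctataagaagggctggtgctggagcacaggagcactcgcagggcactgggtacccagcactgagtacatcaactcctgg
Cxcl10: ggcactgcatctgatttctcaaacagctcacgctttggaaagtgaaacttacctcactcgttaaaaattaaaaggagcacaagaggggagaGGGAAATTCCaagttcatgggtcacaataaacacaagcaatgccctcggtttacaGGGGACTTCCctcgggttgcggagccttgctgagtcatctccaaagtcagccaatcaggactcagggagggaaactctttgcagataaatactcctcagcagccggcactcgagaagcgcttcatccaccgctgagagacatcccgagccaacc
Cxcl12: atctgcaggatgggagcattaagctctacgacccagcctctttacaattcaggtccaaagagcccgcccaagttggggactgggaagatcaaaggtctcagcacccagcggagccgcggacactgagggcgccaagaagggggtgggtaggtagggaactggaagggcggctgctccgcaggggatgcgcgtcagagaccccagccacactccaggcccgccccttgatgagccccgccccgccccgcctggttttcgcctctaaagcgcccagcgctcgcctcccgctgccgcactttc

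In these windows Cxcl1 and Cxcl2 each hold overlapping matches on opposite strands. Together these run from position -71 to -61 relative to the gene start in Cxcl1 and from -97 to -87 in Cxcl2. Each window also holds another match close by, from -89 to -80 in Cxcl1 and from -78 to -69 in Cxcl2. Ccl20 has its match from -80 to -71, and Cxcl10 has matches from -159 to -150 and from -104 to -95. Of 32851 promoter windows in the table, 5.56% hold the motif. Other motifs searched on both strands were the AP-1 motif TGANTCA, held by 7.81% of windows, an interferon-response motif, GAAA then any 2 bases then GAAA (3.44%), TATAAA (13.6%) and the C/EBP motif, TTGC then any 2 bases then AA (10.8%). Among the 6 genes, the AP-1 motif (from -74 to -68) and the interferon-response motif (from -213 to -204) were each found in Cxcl10 alone, and TATAAA (from -6 to -1) in Cx3cl1 alone. The C/EBP motif was found in 0 of the 6. The promoter of Cxcl10 thus carries the same NF-kB-type motif as those of Cxcl1 and Cxcl2. Its transcript stood at 0.741 and 4.99 CPM in tumours 1 and 2, and the part of the motif in any of these levels was not tested. A match is a description of these letters and not a bound site.

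The tumours differed from each other in how much of each chemokine they held. With 1 library each, these ratios have no replicate check. Over 2-fold apart were 6 of the 10 genes, 4 higher in tumour 1 and 2 higher in tumour 2, against 35.0% of 13582 genes with at least 10 counts in either tumour (15.0% higher in tumour 1 and 20.0% higher in tumour 2). Those higher in tumour 1 were Cxcl2 at 17.1-fold (95% counting interval 10.7 to 28.8), Ccl7 at 5.88-fold, Cxcl5 at 5.03-fold and Ccl20 at 2.27-fold. Those higher in tumour 2 were Cxcl10, at 0.149-fold in tumour 1 over tumour 2 (95% counting interval 0.0717 to 0.278), and Cxcl12, which had 0 counts in tumour 1. Ccl2, Cxcl1, Cxcl16 and Cx3cl1 were within 2-fold, at 1.96, 1.57, 1.46 and 0.630 in tumour 1 over tumour 2.

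**Figure D3:**
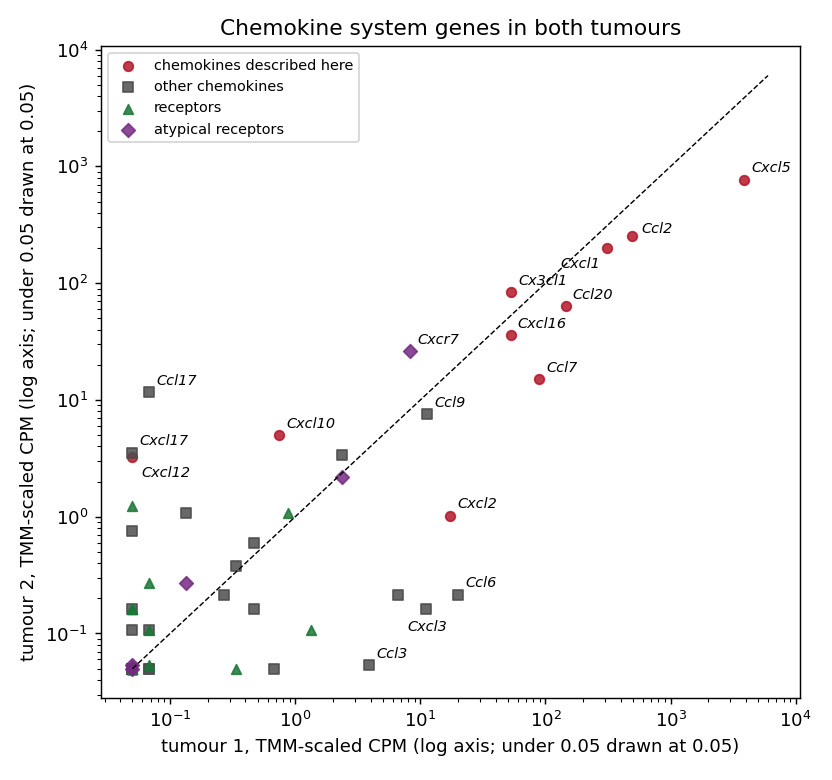
TMM-scaled CPM of chemokine and receptor genes in tumour 1 (horizontal, log axis) against tumour 2 (vertical, log axis), 1 point per gene, with the dashed line at equal levels and values under 0.05 drawn at 0.05. Cxcl2, Ccl7 and Cxcl5 lie below the line, at 17.1-, 5.88- and 5.03-fold higher in tumour 1, and Cxcl10 and Cxcl12 lie above it.

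Between the normal livers, the double heterozygous and the wild type library held nearly the same chemokine counts. Of the 10 genes, 4 had equal counts in both (Ccl2, Ccl7, Ccl20 and Cx3cl1), and Cxcl1, Cxcl12, Cxcl16 and Cx3cl1, each with more than 10 counts in both, were within 2-fold. The other 6, at 0 to 7 counts, were too low to compare. Of the 12505 genes with at least 10 counts in either table, 5.78% were over 2-fold apart. Cxcl12 was at 738 CPM in double heterozygous and 687 CPM in wild type liver, and Cxcl1 at 6.15 CPM in double heterozygous and 7.36 CPM in wild type liver. As the tables share counts beyond sampling, they cannot show whether the genotype alone alters these genes.

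The receptors that would receive these signals had few counts in any library. Of 18 chemokine receptor genes, 4 passed the filter on low counts, and 7 were at 0 counts in both tumours. By edgeR 0 of the 4 were called in either direction, where 7.42% of all genes tested were. At an unadjusted edgeR p under 0.05 there were also 0, against 12.5% higher and 15.5% lower of all genes. DESeq2 called 0, against 12.2% higher and 12.8% lower. Cxcr1 was at 0 in every library, and Cxcr2, the receptor of Cxcl1, Cxcl2 and Cxcl5, had 0 and 3 counts in tumours 1 and 2 and 0 in both normal tables. Ccr2, the receptor of Ccl2 and Ccl7, had 0 counts in both tumours, against 10 in double heterozygous and 13 in wild type normal liver. Ccr3, another receptor of Ccl7, had 0 counts in both tumours, against 11 in double heterozygous and 12 in wild type normal liver. Ccr6, the receptor of Ccl20, had 0 counts in all 4 libraries.

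Cxcr3, the receptor of Cxcl10, had 1 count in each tumour and 2 in each normal table. Cxcr6, the receptor of Cxcl16, had 0 and 3 counts in tumours 1 and 2 and 1 in each normal table. Ccr1 had 20 and 2 counts in tumours 1 and 2 and 3 in each normal table (log2 fold change 1.11, SE 2.47, edgeR adjusted p = 0.792). Cx3cr1, the receptor of Cx3cl1, had 13 and 20 counts in tumours 1 and 2, against 1 in each normal table (log2 fold change 3.05, SE 2.23, edgeR adjusted p = 0.418). Cxcr4, the signalling receptor of Cxcl12, had 0 and 23 counts in tumours 1 and 2 and 6 in each normal table (edgeR adjusted p = 0.989). Its log2 fold change of -0.08 changes sign with the scaling and with the libraries kept. The Ccl2 and Cxcl5 transcripts of the tumours thus stood beside transcripts of Ccr2 and Cxcr2 at or near 0.

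Most atypical receptors bind chemokines without classical signalling, and several of them remove chemokines. Cxcr7, now named Ackr3, takes up Cxcl12 and had 123 and 486 counts in tumours 1 and 2, against 0 in both normal tables. That is 8.29 and 26.1 CPM, and the mean of 17.2 ± 12.6 CPM was at least 52.3-fold higher than the limit of 3 counts in normal liver. Tumour 1 alone gives a bound of 25.2-fold and tumour 2 alone 79.3-fold, and the log2 fold change of 10.93 was 9.63 without tumour 2. It did not pass the test (edgeR adjusted p = 0.0605), and passed it with the normal tables as separate libraries (adjusted p = 0.0216), without a filter on low counts (0.0136), with DESeq2's size factors in edgeR (0.0493), without scaling (0.0495) and by DESeq2 itself (0.00052). Cxcr7 was higher in the same tumours in which its ligand Cxcl12 was at 0 and 3.22 CPM. Ccbp2, now Ackr2, which clears CC chemokines such as Ccl2, had 2 and 5 counts in tumours 1 and 2, against 47 in double heterozygous and 51 in wild type normal liver (log2 fold change -4.66, SE 1.44, edgeR adjusted p = 0.134). Darc, now Ackr1, which binds both CC and CXC chemokines and has shared sequence in 23.0% of its 31-base stretches, had 0 and 1 counts in tumours 1 and 2, against 13 in double heterozygous and 16 in wild type normal liver (adjusted p = 0.217). Ccrl2 was at 35 and 41 counts in tumours 1 and 2, against 15 in double heterozygous and 19 in wild type normal liver (adjusted p = 0.904). Of the 5 genes of this list, 4 were tested and edgeR called 0, where 7.42% of all genes tested were called. At an unadjusted edgeR p under 0.05, 1 was higher and 1 lower, against 12.5% and 15.5% of all genes. DESeq2 called 1 higher and 0 lower, against 12.2% and 12.8%.

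Genes that process chemokines included a large fall. Dpp4, a protease that trims the ends of several chemokines, Cxcl12 and Cxcl10 among them, fell to 7 and 11 counts in tumours 1 and 2, against 4089 in double heterozygous and 4385 in wild type normal liver. Its log2 fold change was -9.74 (SE 0.68, edgeR adjusted p = 0.0182). The fall of Dpp4 kept an adjusted p of 0.0208 or lower under every alternative that gave a test. Hepatocyte markers, given above, were low in the same tumours, and their part in the Dpp4 value was not tested. The sheddases that release Cx3cl1 and Cxcl16 did not pass the test. Adam10 had 3783 and 2342 counts in tumours 1 and 2, against 752 in double heterozygous and 804 in wild type normal liver (log2 fold change 1.16, SE 0.72, adjusted p = 0.354). Adam17 had 676 and 1512 counts in tumours 1 and 2, against 647 in double heterozygous and 711 in wild type normal liver (log2 fold change -0.23, adjusted p = 0.83), a sign that turns without scaling. The proteoglycan genes Sdc4 and Sdc1, whose sugar chains hold chemokines at the cell surface, were the most abundant of the list and did not pass (log2 fold change -1.97 and adjusted p = 0.194 for Sdc4, -0.46 and 0.68 for Sdc1, whose sign turns without scaling). Of these 7 genes edgeR called 1 lower and 0 higher, where 5.19% of all genes tested were called lower and 2.23% higher. At an unadjusted edgeR p under 0.05, 1 was lower and 1 higher, against 15.5% and 12.5% of all genes. DESeq2 called 2 lower and 1 higher, against 12.8% and 12.2%.

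A list of cytokines that induce chemokines, NF-kB subunits and NF-kB feedback genes had 1 of 14 tested members past the test, Il33, where 7.42% of all genes passed. Il33, an alarmin cytokine of epithelial nuclei, rose to 745 and 934 counts in tumours 1 and 2, against 9 in double heterozygous and 10 in wild type normal liver. Its log2 fold change was 5.50 (SE 0.79, edgeR adjusted p = 0.0358), and the adjusted p stayed at or under 0.0371 under every alternative that gave a test. Il33 passed the filter on low counts through its tumour counts alone, so its call is given as a description. Tnfaip3, an NF-kB target that encodes the feedback inhibitor A20, had 2317 and 1295 counts in tumours 1 and 2, against 48 in double heterozygous and 59 in wild type normal liver (log2 fold change 4.25, SE 0.91, adjusted p = 0.0719). The NF-kB subunit gene Nfkb1 had a log2 fold change of 1.93 (SE 0.61, adjusted p = 0.139) and the inhibitor family gene Nfkbiz 1.98 (SE 0.75, adjusted p = 0.185).

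Both tumours lay above both normal tables for 11 of the 16 genes of this list, where the share over all genes tested was 41.2%, and its median log2 fold change was 1.96. DESeq2 called 4 of them higher and 0 lower, against 12.2% and 12.8% of all genes. By an unadjusted edgeR p under 0.05, 5 were higher and 0 lower, against 12.5% and 15.5%. The inducing cytokines of the list other than Il33, named after their values were seen, had low counts. Tnf had 39 and 28 counts in tumours 1 and 2, against 1 in each normal table (adjusted p = 0.261). Il6 had 29 and 47, against 1 in each normal table (adjusted p = 0.24). Il1b had 101 and 0, against 6 in double heterozygous and 13 in wild type normal liver (adjusted p = 0.757). Ifng and Il17a, the classical inducers of Cxcl10 and of Cxcl5, were at 0 counts in all 4 libraries.

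**Figure D4:**
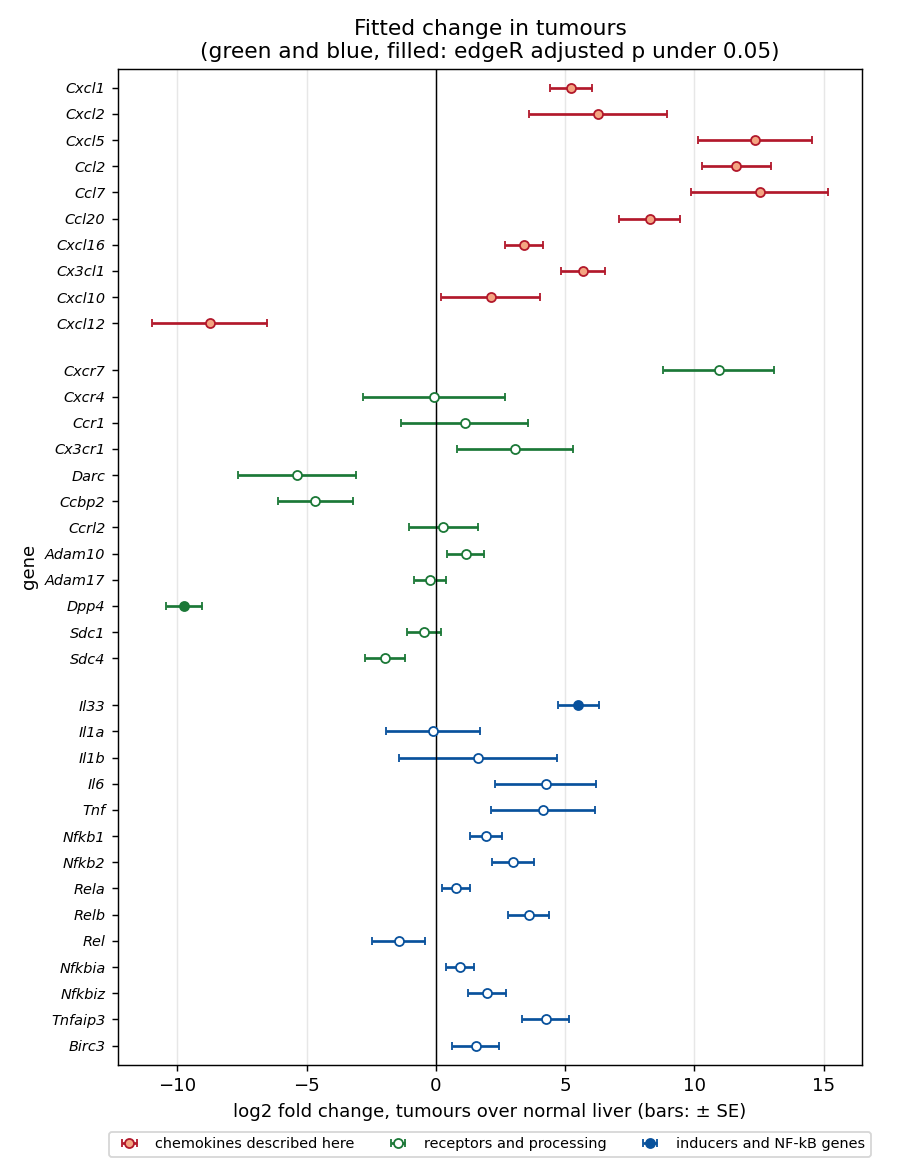
Fitted log2 fold change of tumours over normal liver with its SE for the 10 chemokine genes (red, no test), receptor and processing genes (green) and inducing and NF-kB genes (blue), 1 row per gene. Filled green and blue symbols passed edgeR's test, which are Dpp4 at -9.74 and Il33 at 5.50.

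The other 30 chemokine genes held little of the chemokine RNA. Their counts summed to 857 and 566 in tumours 1 and 2, against 961 in double heterozygous and 1021 in wild type normal liver, while the 10 genes described above summed to 74805 and 26684 in tumours 1 and 2, against 6361 in double heterozygous and 6860 in wild type normal liver. Of the 30, 14 passed the filter and edgeR called 0, where 7.42% of all genes tested were called. At an unadjusted edgeR p under 0.05, 0 were higher and 2 lower, against 12.5% and 15.5% of all genes. DESeq2 called 1 higher and 1 lower, against 12.2% and 12.8%. Ccl9, the most abundant of them in normal liver, had 167 and 141 counts in tumours 1 and 2, against 769 in double heterozygous and 792 in wild type normal liver (log2 fold change -3.18, SE 0.60, adjusted p = 0.0557), and it passed by DESeq2 (0.00147) and in 3 other alternatives. Several were found mainly in 1 tumour. Ccl6, a macrophage chemokine, had 295 and 4 counts in tumours 1 and 2, against 54 in double heterozygous and 56 in wild type normal liver (adjusted p = 0.857). Ccl17, a ligand of Ccr4, had 1 and 218, against 1 in each normal table (adjusted p = 0.362). Named after their values were seen, Cxcl3 had 164 and 3 counts in tumours 1 and 2, Ccl3 had 58 and 1, and Cxcl17 had 0 and 66, each with 0 in both normal tables and none past the test (edgeR adjusted p = 0.258 for Cxcl3, 0.331 for Ccl3 and 0.385 for Cxcl17).

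Markers of white blood cells were set beside these values, since such cells both make and follow chemokines. The 8 general leukocyte markers summed to 14.3 and 1.13 CPM in tumours 1 and 2, against 30.1 CPM in double heterozygous and 29.0 CPM in wild type normal liver, and Ptprc, which encodes CD45, had 35 and 2 counts in tumours 1 and 2, against 65 in double heterozygous and 77 in wild type normal liver. The 8 neutrophil markers summed to 1.62 and 1.93 CPM in tumours 1 and 2, against 2.36 CPM in double heterozygous and 3.58 CPM in wild type normal liver. Of the 8, 1 lay above both normal tables in both tumours and 2 lay below, against 41.2% and 37.5% of all genes tested. S100a8, the marker above, had 15 and 19 counts in tumours 1 and 2, against 2 in double heterozygous and 5 in wild type normal liver. Csf3r had 0 in both tumours, against 10 in double heterozygous and 20 in wild type normal liver. Retnlg, Mpo and Elane were at 0 in every library, and Ly6g had 1 count, in wild type normal liver. Of 8 T cell markers 6 were at 0 in both tumours, Cd3e among them, and the list summed to 0.674 and 0.59 CPM in tumours 1 and 2, against 6.15 CPM in double heterozygous and 7.36 CPM in wild type normal liver. B cell, natural killer and dendritic cell lists were at 0 to 6.27 CPM in the tumours, against 0 to 10.7 CPM in the normal tables, and 4 of 5, 4 of 5 and 3 of 5 markers were at 0 in both tumours. All natural killer markers were at 0 in both normal tables as well, and Eomes, the only one found, had 0 and 18 counts in tumours 1 and 2. High Cxcl1 and Cxcl5 thus stood in libraries with few transcripts of these neutrophil markers, which were also few in normal liver.

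Monocyte and macrophage markers summed to 455 and 87.4 CPM in tumours 1 and 2, against 139 CPM in double heterozygous and 132 CPM in wild type normal liver. Most of the tumour sum was Cd14, at 382 and 80.2 CPM, a gene that epithelial cells can also express. Of the 10 markers, Cd14 alone lay above both normal tables in both tumours and 5 lay below, Csf1r and Mpeg1 among them. Over all genes tested the shares were 41.2% above and 37.5% below. Csf1r had 44 and 23 counts in tumours 1 and 2, against 342 in double heterozygous and 375 in wild type normal liver. The markers did not all order the tumours alike. Lyz2 had 644 and 19 counts in tumours 1 and 2, against 174 in double heterozygous and 225 in wild type normal liver, and Itgam had 162 and 1, against 23 in double heterozygous and 30 in wild type normal liver. Of their 31-base stretches, 32.8% in Lyz2 and 68.3% in Itgam also occur in other genes. Emr1 had 93 and 0 counts in tumours 1 and 2, against 111 in double heterozygous and 119 in wild type normal liver, whereas Cd68 was higher in tumour 2, with 30 and 65 counts, against 21 in double heterozygous and 23 in wild type normal liver. The list was higher in tumour 1, as were Ccl6, Cxcl3, Ccl3 and Cxcl2, and its part in those differences was not tested. Kupffer cell markers summed to 8.22 and 0.161 CPM in tumours 1 and 2, against 1278 CPM in double heterozygous and 1286 CPM in wild type normal liver, and 4 of 6, Clec4f among them, were at 0 in both tumours. Most of the normal sum was C6, at 1167 CPM in double heterozygous and 1180 CPM in wild type normal liver. Most of the sum in tumour 1 was Marco, which had 121 and 1 counts in tumours 1 and 2, against 12 in double heterozygous and 18 in wild type normal liver. Stellate cell and fibroblast markers summed to 4.85 and 730 CPM in tumours 1 and 2, against 246 CPM in double heterozygous and 224 CPM in wild type normal liver, with 2 of 10 at 0 in both tumours. The list was split in tumour 2, the tumour with Cxcl12 counts. Col1a1 had 30 and 3757 counts in tumours 1 and 2, against 11 in double heterozygous and 18 in wild type normal liver. Reln had 0 and 3 counts in tumours 1 and 2, against 1040 in double heterozygous and 1077 in wild type normal liver. Lrat, Lum and Dcn also lay below both normal tables in both tumours, 4 of 10 in all, against 37.5% of all genes tested. The part of the stellate cell and fibroblast list in the Cxcl12 value was not tested. Bile duct markers summed to 2474 and 2115 CPM in tumours 1 and 2, against 44.8 CPM in double heterozygous and 40.9 CPM in wild type normal liver. Most of the tumour sum was Spp1, at 1526 and 1585 CPM. Both tumours were above both normal tables for 4 of the 6, where the share over all genes tested was 41.2%. Krt7, Krt19 and Spp1 passed the test as higher, where 2.23% of all genes did. Krt7 passed the filter on low counts through its tumour counts alone. Epcam and Cftr were high in tumour 1 alone: Epcam had 356 and 4 counts in tumours 1 and 2, against 46 in double heterozygous and 48 in wild type normal liver, and Cftr had 466 and 7, against 15 in double heterozygous and 16 in wild type normal liver. The part of this list in the high Cxcl5, Cxcl1, Ccl2 and Il33 values was not tested.

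**Figure D5:**
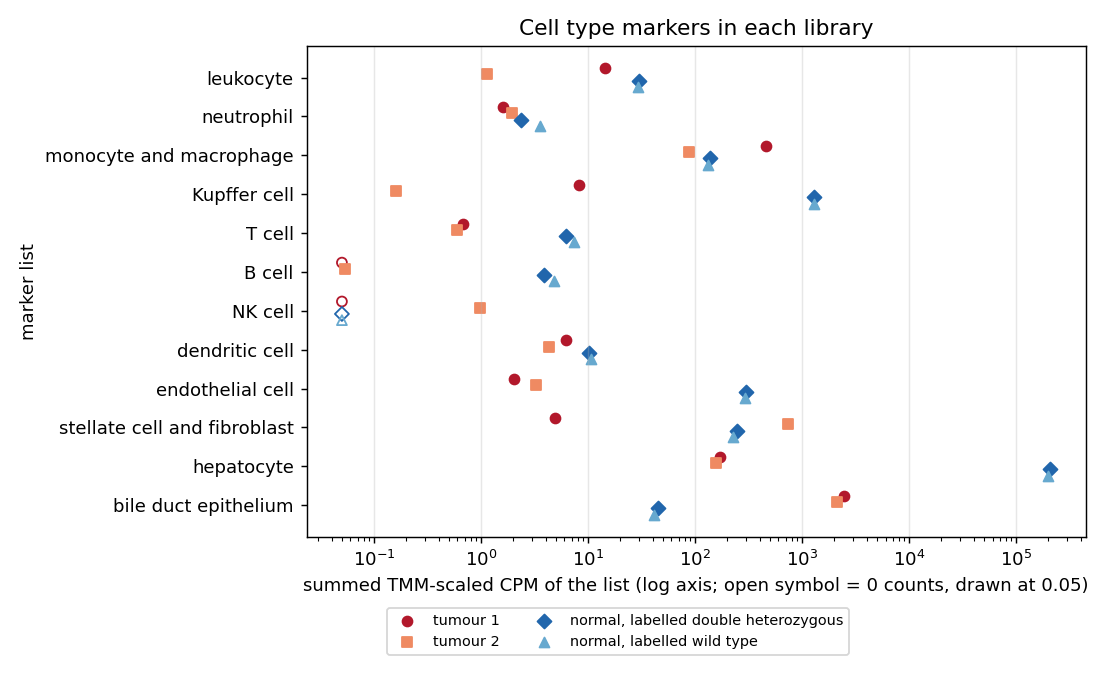
Summed TMM-scaled CPM of each cell type marker list (log axis) in tumours 1 and 2 and both normal libraries, 1 symbol per library, with open symbols for 0 counts. In tumours 1 and 2 the general leukocyte list is at 14.3 and 1.13 CPM, the monocyte and macrophage list at 455 and 87.4 CPM and the bile duct list at 2474 and 2115 CPM.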

How the data were processed

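Per the labels' protocols, RNA was extracted with TRIZOL and sequenced from Illumina TruSeq libraries. The submitters' processing notes list the mouse build mm9, HTSeq, TopHat2 2.0.10, Trimmomatic, FastQC and DESeq2, without saying what each was used for. The authors deposited whole-number counts of reads for each gene symbol, unscaled, in 1 table per library. The 5 lines of each table that name no gene were left out. Those lines held alignments outside genes (13.6% to 31.5% of all counts), alignments that were not unique (30.7% to 51.5%) and ambiguous reads (up to 0.106%).

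The genes described, the lists and the tests were chosen with earlier results of these data known. Tests ran in R 4.3.3 with edgeR 4.0.16 on 2 tumours and the mean normal library (glmQLFit and glmQLFTest, TMM scaling, genes kept by filterByExpr at 10 counts or more), which leaves 1 residual degree of freedom. p-values therefore measure only the spread between the tumours. DESeq2 1.42.0 was an alternative. SE is the absolute log2 fold change over the square root of F. Calls of over 2-fold between single libraries used a prior count of 2, and the printed ratios none. Shared sequence and lengths come from GENCODE M21 transcripts (31-base stretches, both strands), whose build is not that of the counts. Genes named outside the 10 were those past the test, the receptors of the 10, both sheddases and the 3 most abundant of each list in the tumours. Markers named from the cell type lists, Ccr3, Ifng, Il17a and those the text says so of were named after their values were seen.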

Additional observations from a re-analysis of the deposited data

How the results depend on the processing

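The number of the 10 genes with a positive log2 fold change was 9 under all 10 alternatives, and Cxcl12 was the negative 1 in each. Calls over all genes depended on the normal library and the tool: against 322 higher and 751 lower, there were 3058 and 3157 with the normal tables as separate libraries, 1666 and 1743 by DESeq2, 903 and 1383 with no filter and 635 and 472 without scaling. For the other chemokine, receptor, processing and inducer genes, against 1 higher and 1 lower, they gave 13 and 8, 7 and 3, 5 and 2, and 4 and 1, and DESeq2 size factors in edgeR gave 2 and 2. The cause was not tested, except that separate normal tables add a residual degree of freedom from near-copies. The count of the 10 genes over 2-fold apart between the normal tables was 1 (Cxcl2) with a prior count of 0.5.

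Values that did not pass the test turned sign as follows. With 1 library left out, the log2 fold change ranged from -4.77 to 1.72 for Ccl6, from -0.25 to 0.88 for Cxcr4 and from -0.71 to 0.11 for Adam17. Cxcr4 was 0.04 without the double heterozygous normal liver, 0.12 with upper quartile scaling and 1.30 without scaling, where Adam17 was 1.15 and Sdc1 0.90. No paired analysis was possible because the normal libraries carry no replicate numbers. Leaving out a tumour leaves 1 library against 1, so it gave values with no test. With 2 tumours and 1 normal library, genes that failed the filter on low counts were given no test.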
